A study of Homo sapiens with 6 samples.

Results

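The genes that build ribosomes were followed on 6 two-colour arrays of the human cell line GM00156 from the Coriell repository. A gene was a member if its probe carried a single symbol and that symbol was either 1 of 21 named genes or began with a nucleolar prefix such as NOP, NOL, UTP, RRP, POLR1, IMP3, IMP4, MPHOSPH10 or BRIX1 (for the lettered families, followed by a number or a subunit letter). The rule used names alone and no measured value. It found 49 genes on 61 probes, of 8987 genes on 11304 single-gene probes, and no probe for 5 of the names (BOP1, GNL3, EBNA1BP2, LTV1 and TSR1). Of the 49 genes, 48 were measured at all 5 harvests.

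Cells received emetine, which stops ribosomes on mRNA, at 100 µg/ml for 10 h, or were left untreated. Actinomycin D, which blocks RNA synthesis, was then given to both at 5 µg/ml, and cells were harvested after 0, 10 and 30 min and after 1 and 8 h. Each harvest has 1 array of emetine-treated against untreated cells, and a self-self array set treated RNA of the 0 min harvest against itself, without actinomycin D in its label. The deposited values are log2 ratios. Since no label says which RNA is the numerator, neither a positive nor a negative value is read as more or less RNA after emetine. The description of the 0 min array names treated RNA on both sides, whereas its channel labels name treated and untreated RNA. Labels give no cell type, and ratios give no expression level with which to check one. Whether the harvests came from separate cultures is not stated, so p-values measure only the spread between these arrays, which may be technical; precision is set by how few arrays there are. In RNA from a whole culture, fewer cells of a type and less RNA per cell cannot be told apart.

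Ribosome production starts in the nucleolus, where RNA polymerase I copies the ribosomal DNA into one long precursor. Small nucleolar ribonucleoproteins (snoRNPs) methylate and pseudouridylate this RNA, the small subunit processome folds and cuts it, and further factors finish each subunit and carry it towards the cytoplasm. MYC, a transcription factor that binds the sequence CACGTG known as the E-box, is a textbook activator of many of these genes.

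The promoters are shown because their sequence is independent of the arrays. RefSeq promoters of GRCh38.p14, from 250 bases before to 50 after a gene's start, were found for 41 of the 48 measured members. There was no entry for MPHOSPH10, NOL10, NOLC1, RRP12, RRP1B, RRS1 and TCOF1. The E-box CACGTG, the same on both strands, lay in 16 of 41 member promoters (39.0%), against 9.65% of the 7138 promoters of measured genes and 7.43% of all 27305 promoters. In 15 of the 16 the box nearest the start began within 50 bases of it. Windows of 30 bases around that box are printed below for 5 members with a positive and 3 with a negative mean log ratio. Sides here are signs alone, and the positive mean of PES1 did not pass in the fit below. The windows run 5′ to 3′ on the gene's strand with the box in capitals.
NOP14 (chr4:2963374-2963403, minus strand): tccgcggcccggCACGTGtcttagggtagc
PES1 (chr22:30591880-30591909, minus strand): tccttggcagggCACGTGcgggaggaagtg
UTP18 (chr17:51260538-51260567, plus strand): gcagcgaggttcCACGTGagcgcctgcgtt
BYSL (chr6:41921515-41921544, plus strand): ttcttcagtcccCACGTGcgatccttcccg
NOL6 (chr9:33473894-33473923, minus strand): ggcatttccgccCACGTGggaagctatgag
NOP10 (chr15:34343130-34343159, minus strand): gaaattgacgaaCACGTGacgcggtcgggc
IMP4 (chr2:130342900-130342929, plus strand): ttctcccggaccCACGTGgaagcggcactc
FBL (chr19:39846356-39846385, minus strand): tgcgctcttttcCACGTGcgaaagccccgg

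NOP14 had the highest mean log ratio of the members, so its promoter is given whole, with the E-box in capitals (chr4:2963357-2963656, minus strand).
NOP14: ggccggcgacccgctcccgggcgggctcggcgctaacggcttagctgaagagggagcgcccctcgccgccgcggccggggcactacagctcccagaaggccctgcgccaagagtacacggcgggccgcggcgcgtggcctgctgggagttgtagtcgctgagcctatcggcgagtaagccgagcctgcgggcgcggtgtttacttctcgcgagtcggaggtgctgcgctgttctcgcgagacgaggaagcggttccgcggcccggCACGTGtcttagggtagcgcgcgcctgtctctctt
The ETS core CCGGAAG, with its reverse CTTCCGG, lay in 24.4% of member promoters against 15.8% of those of measured genes, and TATAAA, with its reverse TTTATA, in 4.88% against 7.59%. None of these strings contains another. The median GC content was 63.7% in member promoters and 64.7% in those of measured genes. The E-box stood on both sides of the ratio. By sign alone, the mean was positive for 11 and negative for 5 of its 16 members, counts given without a background. In the fit below, PES1, PNO1, POLR1G and UTP20 of the positive ones and NOL8 and RRP9 of the negative ones did not pass. The median difference of log ratios between 8 h and 0 min was 0.65 for the 16 members with an E-box and 0.56 for the 25 without. These matches describe letters in a window and not bound sites.

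The self-self array had a robust SD of 0.12 over all probes, against 0.44, 0.91, 0.78, 0.53 and 0.87 on the 0, 10 and 30 min, 1 h and 8 h arrays. The harvests correlated with each other across all probes at r from 0.65 to 0.89, and with the self-self array at 0.16 to 0.30; these points are probes of shared arrays, not replicates. For the 0 min array, whose labels conflict, r was 0.88 against 10 min and 0.21 against self-self. The central 99% of genes on the self-self array ran from -0.28 to 0.43, and this range is used below as the noise of labelling and hybridisation.

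Members stood on both sides of the ratio. Of the 5 core snoRNP genes among the members, FBL of box C/D and 4 of box H/ACA, 4 had negative means that passed. NOP56 and NOP58, also of box C/D, were not among the members. RNA polymerase I and large subunit genes fell on both sides. In a fit of a mean and a slope over time to each gene (limma, adjusted p of 0.05 over 8748 genes), 17 of 48 members had a positive mean, 11 a negative mean and 20 did not pass. That is 35.4% positive and 22.9% negative, close to the background of all genes, 37% positive and 25.3% negative (62.4% on either side). The members' median mean log ratio was 0.19, against 0.14 for all genes, or 0.09 against 0.04 with each array centred on its median. Without the 8 h array the order turned, at 0.05 for members and 0.11 for all genes. The members' median differed most from that of all genes at 8 h. On the 0, 10 and 30 min, 1 h and 8 h arrays the members' medians were -0.04, 0.16, 0.13, 0.12 and 0.42, and those of all genes 0.06, 0.11, 0.16, 0.07 and 0.18. No set test was made of these medians.

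**Figure D1:**
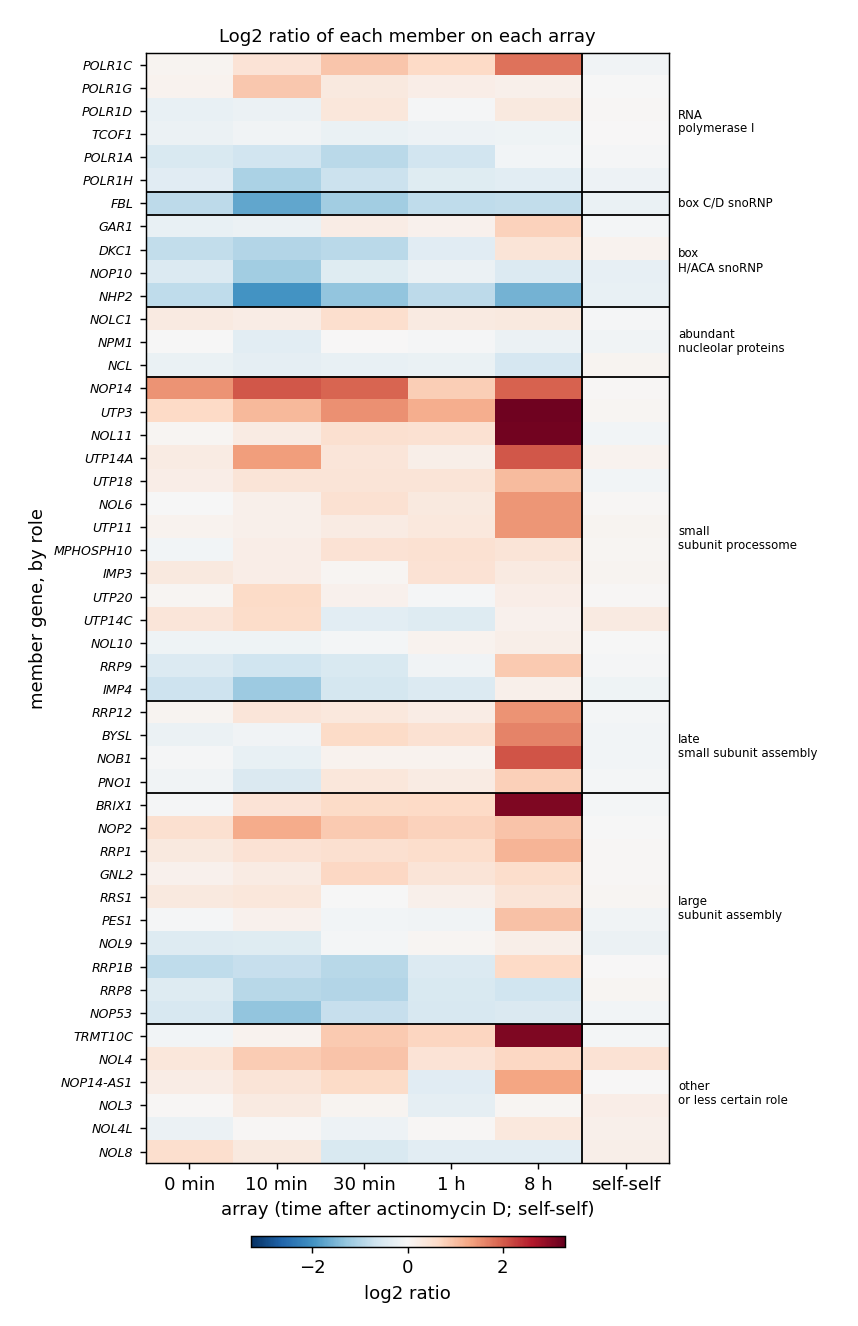
Log2 ratio of the 48 members measured at all 5 harvests (rows, grouped by role) on the 5 harvest arrays and, at the right, the self-self array; colour runs from -3.3 or below (blue) to 3.3 or above (red). The 8 h column holds the deepest red, for UTP3 at 3.20, NOL11 at 3.18, TRMT10C at 3.09 and BRIX1 at 3.07, whereas FBL and NHP2 are blue at every harvest.

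Among RNA polymerase I genes, POLR1C had a positive mean that passed, POLR1A and POLR1H had negative ones, and the other 3 of 6 missed the threshold. Of all genes 37% were positive and 25.3% negative. POLR1C, a subunit shared by RNA polymerases I and III, had log2 ratios of 0.09, 0.45, 0.92, 0.65 and 1.78 at 0, 10 and 30 min, 1 h and 8 h, against -0.13 on the self-self array. Its values were positive at every harvest and beyond the self-self range at all but the first. Its mean was 0.78 (SE 0.12, 5 arrays, adjusted p = 0.00103), and its 2 probes had means of 0.64 and 0.92. POLR1A, the largest catalytic subunit, stood at -0.51, -0.64, -0.88, -0.62 and -0.08, against -0.04 self-self. The average was negative throughout, but at 8 h its 2 probes stood at 0.56 and -0.72, beyond the self-self range on opposite sides. The mean of POLR1A was -0.55 (SE 0.12, adjusted p = 0.00617). Over the harvests the probes averaged -0.81 and -0.29, of which only the first passed in a fit over single probes (adjusted p = 0.000959). POLR1H, a small subunit that aids cleavage of the transcript, was at -0.38, -1.03, -0.70, -0.41 and -0.34, against -0.16 self-self. All 5 lay below the self-self range, and its mean was -0.57 (SE 0.13, adjusted p = 0.00665). The remaining members of this group were POLR1G, POLR1D and TCOF1, which encodes treacle, a partner of the polymerase at ribosomal DNA. Their means were 0.34, 0.04 and -0.17 (adjusted p = 0.0637, 0.777 and 0.184).

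FBL, NHP2 and NOP10, genes of core snoRNP proteins, had negative log ratios at every harvest. FBL encodes fibrillarin, the methyltransferase of box C/D snoRNPs, and had log2 ratios of -0.87, -1.72, -1.16, -0.84 and -0.82, against -0.21 self-self. Every harvest was lower than the self-self value by more than 0.6, and the lowest was 10 min. The mean of FBL was -1.08 (SE 0.15, adjusted p = 0.000758). A probe annotated to both FBL and FCGBP, and so outside the rule, was positive at every harvest, with a mean of 0.32. Box H/ACA snoRNPs, which convert uridine to pseudouridine, have 4 core proteins. Of their 4 genes 3 had a negative mean that passed, against 25.3% of all genes, the exception being GAR1. NHP2 had the lowest mean of all 48 members, with -0.84, -1.96, -1.31, -0.85 and -1.55 at the 5 harvests and -0.24 on the self-self array. Its mean was -1.30 (SE 0.18, adjusted p = 0.000746). FBL and NHP2 shared their lowest harvest, 10 min, with 13 of 48 members in all and 2424 of 8748 genes. At 8 h they differed, as this harvest was the highest for FBL and the next lowest for NHP2. NOP10, the smallest of the core proteins, was at -0.46, -1.15, -0.41, -0.19 and -0.46, against -0.28 self-self. All were negative, although the 1 h value was closer to 0 than the self-self value, which was itself just below the self-self range. The mean of NOP10 was -0.53 (SE 0.15, adjusted p = 0.0149).

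The other core H/ACA genes had higher log ratios at 8 h than at any earlier harvest. DKC1, the pseudouridine synthase dyskerin, was at -0.80, -0.97, -0.90, -0.38 and 0.43, against 0.11 self-self. It changed sign, below the self-self range up to 1 h and just above it at 8 h, and had a mean of -0.53 (SE 0.13, adjusted p = 0.00757). That call was lost with no slope in the fit (adjusted p = 0.0586). GAR1 was at -0.25, -0.18, 0.23, 0.15 and 0.76, against -0.07 self-self. Its 4 earlier values were inside the self-self range, and its mean of 0.14 (SE 0.11) did not pass (adjusted p = 0.265) and was -0.012 without the 8 h array. The H/ACA genes thus differed in course: 8 h minus 0 min was 1.23 for DKC1 and 1.02 for GAR1, against 0.01 for NOP10 and -0.71 for NHP2. With 1 array per harvest these differences carry no test.

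Genes of the abundant nucleolar proteins had small means on both sides, from -0.31 for NCL to 0.34 for NOLC1. NCL, nucleolin, which binds ribosomal RNA and ribosomal DNA, was at -0.22, -0.30, -0.24, -0.23 and -0.56, against 0.08 self-self. It was negative throughout, and only the 10 min and 8 h values left the self-self range. Its mean was -0.31 (SE 0.11, adjusted p = 0.0313), a call lost without the 10 min, 30 min, 1 h or 8 h array. NPM1, nucleophosmin, a chaperone of ribosome assembly, was at -0.02, -0.34, 0.02, -0.04 and -0.19, against -0.13 self-self. Its mean of -0.12 (SE 0.11) did not pass (adjusted p = 0.39), with -0.24 and 0.01 for its 2 probes, and NPM1 has many processed pseudogenes that a probe could also detect. NOLC1, a chaperone that escorts snoRNPs, was at 0.29, 0.23, 0.56, 0.28 and 0.33, against -0.04 self-self. The mean of NOLC1 was 0.34 (SE 0.11, adjusted p = 0.0267), a call lost without the 30 min or the 8 h array.

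The small subunit processome held the members with the largest positive means. Of its 14 members 7 had positive means that passed, 1 a negative one and 6 missed the threshold, against 37% positive and 25.3% negative of all genes, and their median mean was 0.39 against 0.14 for all genes. Without the 8 h array 3 of the 14 were positive (NOP14, UTP3 and UTP18) and 2 negative (IMP4 and RRP9). Of all genes 30.2% were positive and 22.8% negative in that fit. NOP14 was at 1.49, 2.05, 1.93, 0.80 and 1.96, against 0.04 self-self. It was far above the self-self range at every harvest and, unlike most of its class, already so at 0 min. Its mean was 1.65 (SE 0.19, adjusted p = 0.000492), and its probes differed in size, at 1.09 and 2.21, but not in side. UTP3 was at 0.65, 1.08, 1.52, 1.19 and 3.20, against 0.07 self-self. It too was beyond the self-self range at all 5 harvests, and its mean was 1.53 (SE 0.14, adjusted p = 0.000462). The probe annotated to NOP14-AS1, a non-coding transcript named as antisense to NOP14, gave 0.24, 0.42, 0.62, -0.39 and 1.30, against 0.01 self-self. Its mean of 0.44 (SE 0.19) did not pass (adjusted p = 0.076). Whether the probes tell the strands apart is not stated in the labels.

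The 8 h value was the highest of the harvests for 9 of the 14 processome genes, among them UTP3, NOL11, UTP14A, NOL6, UTP11 and UTP18. NOL11, a subunit of the complex that joins transcription of ribosomal DNA to processing, was at 0.08, 0.28, 0.53, 0.49 and 3.18, against -0.08 self-self. Values at 30 min and 1 h were already above the self-self range, and the 8 h value stood 2.65 above that at 30 min. Its mean was 0.91 (SE 0.18, adjusted p = 0.00355), or 0.34 without the 8 h array (adjusted p = 0.0544). With no slope in the fit the NOL11 call was lost (adjusted p = 0.0908). UTP14A was at 0.27, 1.37, 0.41, 0.19 and 2.05, against 0.12 self-self. It was high at 10 min and 8 h and within the self-self range at the other three, with a mean of 0.86 (SE 0.22, adjusted p = 0.0112). UTP14C, a retrogene copy of UTP14A whose probe could detect both, was at 0.39, 0.62, -0.35, -0.42 and 0.15, against 0.29 self-self, and did not pass (adjusted p = 0.705). NOL6, UTP11 and UTP18 had 8 h values of 1.46, 1.45 and 1.04, and each was between -0.01 and 0.50 before that. Their means were 0.49, 0.47 and 0.50 (adjusted p = 0.00723, 0.00971 and 0.00468). NOL6 and UTP11 lost their calls with no slope in the fit. The UTP18 call rests on 1 of its 2 probes, at 1.05 (adjusted p = 0.000589), while the other was at -0.04 (adjusted p = 0.769).

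The parts of the complex around U3 RNA differed from one another. IMP4, which binds MPHOSPH10 and IMP3, was at -0.69, -1.20, -0.59, -0.44 and 0.18, against -0.13 self-self. It was below the self-self range until 1 h and inside it at 8 h. The mean of IMP4 was -0.55 (SE 0.13, adjusted p = 0.00741). IMP3 and MPHOSPH10, its partners, had means of 0.27 and 0.30 and did not pass (adjusted p = 0.0624 and 0.0524). The 2 probes of MPHOSPH10 were at 0.60 and 0.01. RRP9, a protein bound to U3 RNA, was at -0.45, -0.65, -0.51, -0.13 and 0.87, against -0.04 self-self, and its mean of -0.17 did not pass (adjusted p = 0.257). Its sign turned between 1 h and 8 h on both probes. UTP20 and NOL10 stayed nearer 0, with means of 0.20 and 0.00 (adjusted p = 0.208 and 0.973).

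Factors that finish the small subunit in the late nuclear and cytoplasmic steps were all above the self-self range at 8 h, as were 36.6% of all genes. NOB1, the nuclease that makes the final cut at the 3′ end of 18S ribosomal RNA, was at -0.05, -0.25, 0.11, 0.11 and 2.06, against -0.09 self-self. Its first 4 values were inside the self-self range, and its mean of 0.40 (SE 0.16) did not pass (adjusted p = 0.0602). BYSL, bystin, was at -0.20, -0.12, 0.63, 0.51 and 1.63, against -0.10 self-self. The log ratio left the self-self range at 30 min and was highest at 8 h, with a mean of 0.49 (SE 0.12, adjusted p = 0.00718). That call was lost with no slope in the fit (adjusted p = 0.125). These values come from 1 of the 2 BYSL probes, as the other was measured on only 2 harvest arrays, at -1.92 at 30 min and 2.60 at 8 h. RRP12 was at 0.08, 0.39, 0.36, 0.23 and 1.48, against -0.06 self-self, and its mean was 0.51 (SE 0.13, adjusted p = 0.00996). The RRP12 call was lost with no slope in the fit (adjusted p = 0.0584). PNO1, the partner of NOB1, was at -0.11, -0.47, 0.38, 0.27 and 0.78, against -0.06 self-self. It lay below the self-self range at 10 min and above it at 8 h, and its mean of 0.17 did not pass (adjusted p = 0.273).

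Genes for assembly of the large subunit fell on both sides. Of the 10 measured at all harvests 4 were positive, 3 negative and 3 did not pass, against 37% positive and 25.3% negative of all genes. BRIX1 was at -0.05, 0.44, 0.64, 0.66 and 3.07, against -0.06 self-self. The 8 h value was 2.41 above the 1 h value, the next highest. Its mean was 0.95 (SE 0.16, adjusted p = 0.00144), which was 0.42 without the 8 h array (adjusted p = 0.0311) and lost its call with no slope in the fit (adjusted p = 0.0693). NOP2, a methyltransferase of 28S ribosomal RNA, was at 0.54, 1.22, 0.86, 0.76 and 0.94, against -0.01 self-self. Unlike BRIX1 it was beyond the self-self range at all harvests with its highest value at 10 min, and its mean was 0.86 (SE 0.13, adjusted p = 0.000971). RRP1 was at 0.32, 0.48, 0.52, 0.57 and 1.12, against 0.03 self-self, with a mean of 0.60 (SE 0.10, adjusted p = 0.00187). GNL2, a GTPase, had a mean of 0.42 (SE 0.11, adjusted p = 0.0137), a call lost without the 30 min array.

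On the negative side of the same group, NOP53 was at -0.54, -1.30, -0.77, -0.52 and -0.48, against -0.09 self-self. RRP8, which methylates 28S ribosomal RNA, was at -0.41, -0.91, -0.98, -0.49 and -0.66, against 0.06 self-self. Both lay below the self-self range at all 5 harvests, with means of -0.72 (SE 0.14, adjusted p = 0.00317) and -0.69 (SE 0.13, adjusted p = 0.00263). RRP1B, a paralogue of RRP1, was at -0.84, -0.75, -0.92, -0.45 and 0.66, against 0.03 self-self. It was negative up to 1 h, where RRP1 was positive, and its 2 probes agreed in this. The mean of RRP1B was -0.46 (SE 0.13, adjusted p = 0.0165), a call lost without the 0, 10 or 30 min array, and -0.74 without the 8 h array (adjusted p = 0.00502). With no slope in the fit the RRP1B call was also lost (adjusted p = 0.115). PES1, RRS1 and NOL9 did not pass, with means of 0.18, 0.26 and -0.13 (adjusted p = 0.284, 0.0827 and 0.321). NIP7 was not measured at 30 min and so did not enter the fit; at 0 and 10 min, 1 h and 8 h it was at 0.92, 1.27, 0.67 and 1.005, against -0.03 self-self.

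A few members share a name pattern or a place on the list but have another or less certain role in ribosome production. TRMT10C, a subunit of mitochondrial RNase P, was at -0.08, 0.11, 0.87, 0.71 and 3.09, against -0.07 self-self. It was above the self-self range from 30 min on and highest at 8 h. The mean of TRMT10C was 0.94 (SE 0.15, adjusted p = 0.00117), which was 0.40 without the 8 h array (adjusted p = 0.045) and lost its call with no slope in the fit (adjusted p = 0.0799). NOL4 was at 0.38, 0.83, 0.94, 0.44 and 0.68, but also at 0.47 on the self-self array, so its mean of 0.66 (SE 0.13, adjusted p = 0.00302) stood beside a self-self value that was itself beyond the range. NOL3, an inhibitor of apoptosis, NOL4L and NOL8 had means of 0.04, 0.01 and -0.06 and did not pass (adjusted p = 0.784, 0.926 and 0.72). Without the 6 members of this kind, 15 of 42 had a positive and 11 a negative mean that passed, against 37% and 25.3% of all genes.

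**Figure D2:**
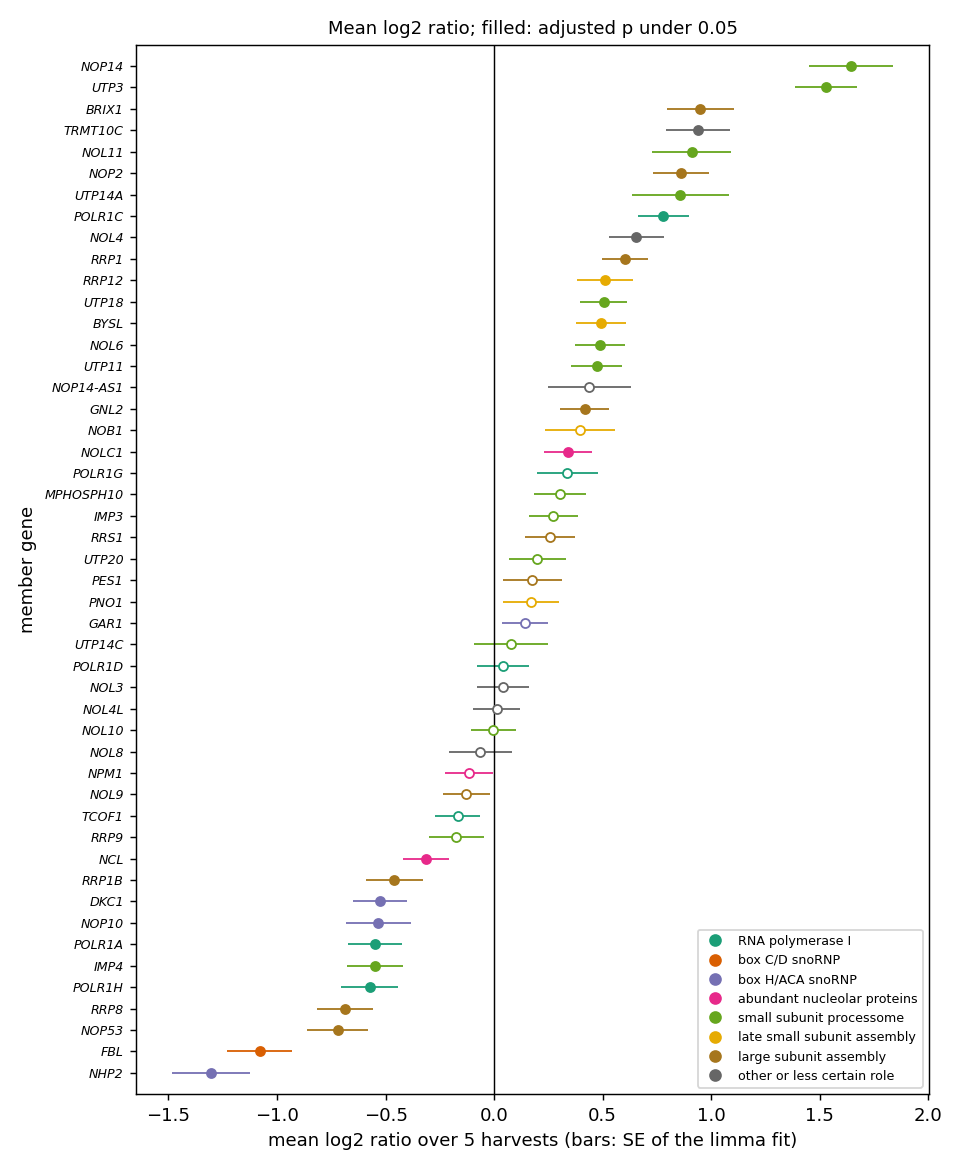
Mean log2 ratio over the 5 harvests for each of the 48 members, in order of size and coloured by role; bars are standard errors of the limma fit and filled points passed an adjusted p of 0.05. NOP14 at 1.65 and UTP3 at 1.53 are highest, and FBL at -1.08 and NHP2 at -1.30 lowest.

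Whether log ratios moved with time after actinomycin D was asked by the slope of the same fit on log2(1 + min / 10). No member passed an adjusted p of 0.05 (background 0.0114%, which is 1 gene of 8748), whereas 19 of 48 had an unadjusted p under 0.05, all with a positive slope, against 11.2% of all genes with a positive and 3.72% with a negative slope at that p. The slope was above 0 for 39 of 48 members and for 52.4% of all genes. The smallest adjusted p-values were those of TRMT10C, with a slope of 0.57 per unit of log2 time (SE 0.08, adjusted p = 0.0619), BRIX1 at 0.54 (SE 0.08, adjusted p = 0.0694), NOL11 at 0.56 (SE 0.10, adjusted p = 0.0747) and UTP3 at 0.44 (SE 0.07, adjusted p = 0.0747). Negative slopes were few and small: those of NOL8, UTP14C, POLR1G and NCL were -0.16, -0.07, -0.04 and -0.06 (adjusted p = 0.402, 0.809, 0.873 and 0.739). Without the 1 h array 10 members passed, against 5.91% of all genes and 5.3% with a positive slope: BRIX1, BYSL, NOB1, NOL6, NOL11, POLR1C, RRP1B, RRP12, TRMT10C and UTP3, all with a positive slope. Without the 8 h array 0 members and 0 of all genes passed, so that fit cannot show how far the slopes depend on 8 h. There 3 members had an unadjusted p under 0.05, a count given without its background.

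The last harvest was then set against the earlier ones. The 8 h value was the highest of the 5 for 29 of 48 members, against 33.4% of all genes. It was at least 1 log2 unit above the 0 min value for 17 of 48 members, against 10.9% of all genes, and at least 1 below it for 0 of 48, against 4.24%. The median difference between 8 h and 0 min was 0.53 for members and 0.06 for all genes. Against the 10 min, 30 min and 1 h arrays, 15, 13 and 15 members were at least 1 unit higher at 8 h, with backgrounds of 10.4%, 8.18% and 12.2%. At least 1 unit lower there were 0 members in each, with backgrounds of 2.89%, 2.19% and 1.14%. The robust SD was 0.87 on the 8 h array and 0.44 on the 0 min array, and after scaling all arrays to equal spread the count was 14 of 48 against 5.64% of all genes. The largest differences from 0 min were 3.17 for TRMT10C, 3.12 for BRIX1, 3.10 for NOL11, 2.55 for UTP3, 2.11 for NOB1, 1.83 for BYSL, 1.77 for UTP14A and 1.69 for POLR1C. The lowest were -0.90 for NOL8, -0.71 for NHP2 and -0.34 for NCL. All of this stands on 1 array for 8 h, without a test, and the part of that array in it was not tested.

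**Figure D3:**
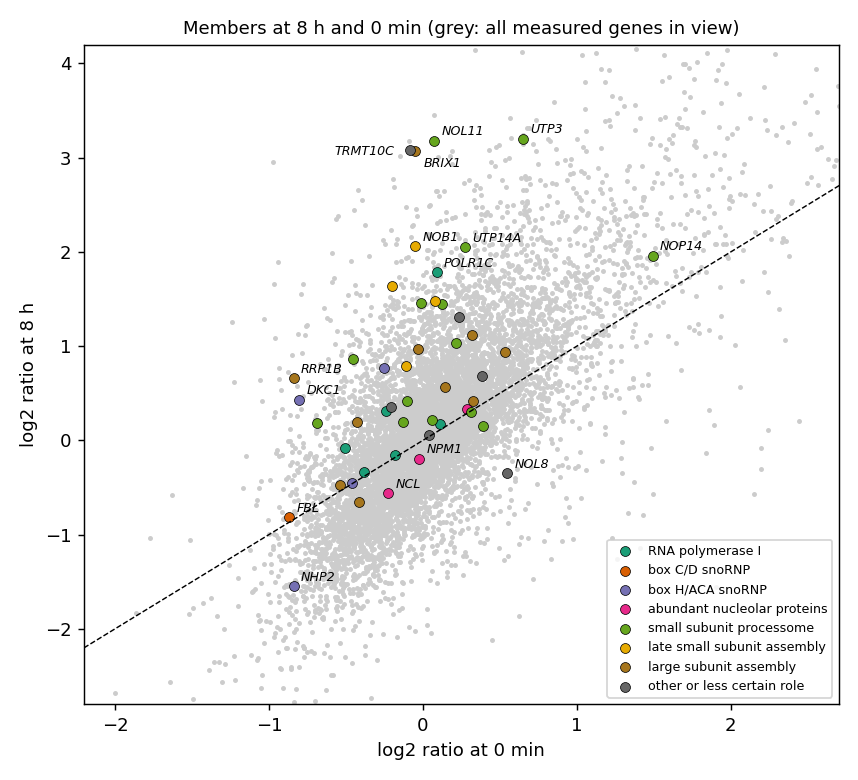
Log2 ratio at 8 h (vertical) against 0 min (horizontal) for the 48 members, coloured by role, over all measured genes in view (grey); the dashed line marks equal values. TRMT10C, BRIX1 and NOL11 lie near 0 at 0 min and above 3 at 8 h, NOP14 is high on both, and NHP2 and FBL are low on both.

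Set against the self-self range, 24 members lay above it and 8 below it at 8 h, with backgrounds of 36.6% above and 28.9% below. At 0 min 4 were above and 12 below, against 20.3% and 21.4%. At 10 min 12 were above and 15 below (backgrounds 35.9% and 33.7%), at 30 min 15 and 13 (35.9% and 29.8%), and at 1 h 12 and 13 (21.6% and 26.7%). Members were thus fewer above the range than below it at 0 min, in near equal numbers from 10 min to 1 h, and more often above than below at 8 h. The same sign held at all 5 harvests for 24 of 48 members and for 63.3% of all genes. Scaling to equal spread also stretched the self-self array, from its robust SD of 0.12, and so widened the range itself. Against that wider range 0 members lay outside at 0 min and 1 at 8 h. The counts after scaling were largely set by that widening and cannot show which values exceed the noise. The counts before scaling rest on a range from 1 self-self array.

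Leaving out the 8 h array changed the positive calls for the mean. Without it positive calls fell to 10 members, against 30.2% of all genes, while negative calls numbered 11, against 22.8% of all genes. The late small subunit group then had 0 calls of 4. Calls were lost for BYSL, NCL, NOL6, NOL11, NOLC1, RRP12, UTP11 and UTP14A, and gained for RRP9, on the negative side at -0.43 (adjusted p = 0.0324). Without both the 0 min and the 1 h array, there were 21 positive and 10 negative calls, against 39.4% and 25.5% of all genes. When the self-self array entered the fit as the level to compare with, 0 of 48 passed, and 0.0115% of all genes did; that fit assumes that a single self-self array varies like the harvests.

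Other genes of the same pathway were taken from a list of 115 names, of which 71 were measured at all harvests. For the mean there were 27 positive calls (background 37%), 17 negative calls (25.3%) and 27 genes without one, and the list median was -0.01. Large subunit factors were both highest and among the lowest. PAK1IP1 was at 1.02, 1.82, 1.10, 1.36 and 2.46, against 0.01 self-self, with a mean of 1.55 (SE 0.16, adjusted p = 0.000462). GTPBP4, a nucleolar GTPase, was at 0.82, 1.43, 0.98, 0.64 and 3.18, against -0.02 self-self, with a mean of 1.41 (SE 0.23, adjusted p = 0.00134). Both were beyond the self-self range throughout and highest at 8 h. The helicase DDX10, TAF1A of the polymerase I initiation factor, the snoRNP assembly factor NUFIP1 and CEBPZ had means of 1.24, 1.17, 1.08 and 1.03. On the negative side stood POLR2F, a subunit common to RNA polymerases I, II and III, at -1.04 (SE 0.16, adjusted p = 0.00103), and SBDS, which releases EIF6 from the large subunit and is mutated in Shwachman-Diamond syndrome, at -1.003 (SE 0.14, adjusted p = 0.000682). EXOSC3 of the RNA exosome, the acetyltransferase NAT10, CCDC86 and TMA16 had means of -0.997, -0.94, -0.89 and -0.76.

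By group, the 15 small subunit factors of this list had 8 positive and 3 negative calls and the 25 large subunit factors 11 and 6. The background for these counts was 37% positive and 25.3% negative. The 11 polymerase I factors and shared subunits had 5 and 3, the 6 snoRNP assembly factors 2 and 3, the 11 exosome and nuclease genes 0 and 2, and the 3 remaining nucleolar genes 1 and 0. The list shared the members' difference at 8 h: the median of 8 h minus 0 min was 0.46, and 20 of 71 were at least 1 unit higher, against 10.9% of all genes. For the large subunit factors the median was 0.77, and for the polymerase I group 0.21. No slope passed (0 of 71, and 26 with an unadjusted p under 0.05, all positive). MYC itself was at 0.34, 1.23, 3.39, 1.15 and 4.15, against -0.05 self-self. Its highest values were those at 8 h and 30 min, and its mean was 2.05 (SE 0.33, adjusted p = 0.00132). A link between MYC and the members' values was not tested.

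**Figure D4:**
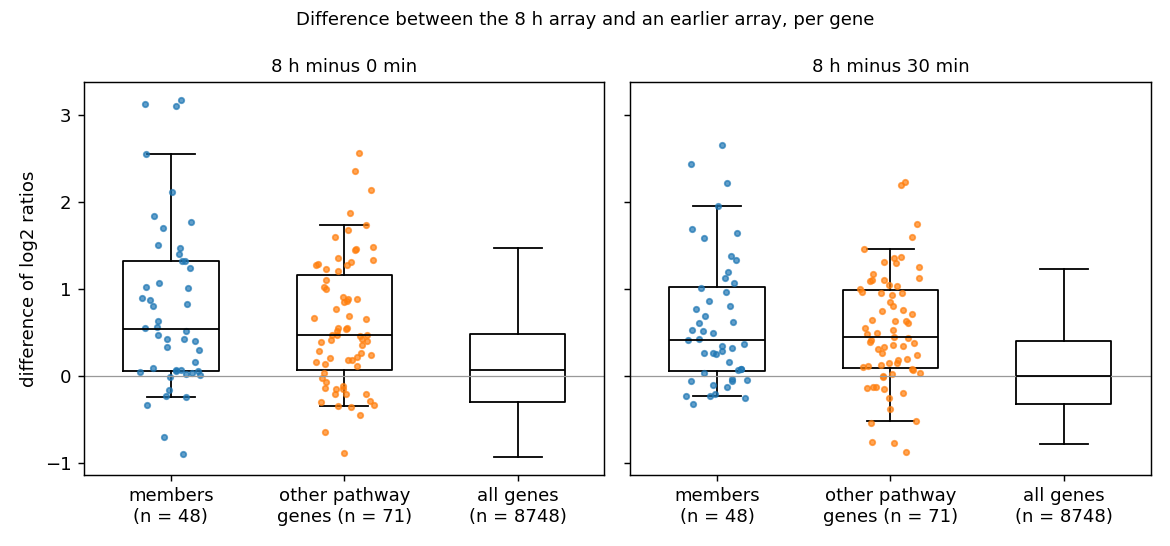
Difference of log2 ratios between the 8 h array and the 0 min array (left) or the 30 min array (right) for the 48 members, 71 other pathway genes and 8748 genes in all; boxes give quartiles and median, whiskers the 5th and 95th percentiles, and points single genes of the first 2 groups. Against 0 min the medians are 0.53, 0.46 and 0.06, and against 30 min 0.41, 0.44 and 0.00.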

How the data were processed

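Values are the authors' deposited log2 ratios, 1 per probe and array, for 14080 probes. Per the labels, spot intensities were background-subtracted, sample divided by reference, normalised within each slide on housekeeping genes, and ratios of quality under 0.5 discarded; if the housekeeping genes moved together, every ratio of that slide moved with them. No label gives the log base. Raising 2 to each value gave ratios with 4 decimals (a whole number after multiplying by 10000, tolerance 0.05) for 99.5% to 100% of values on an array. The numerator and the software are not given in the sources used here, and no centring was found (array medians 0.01 to 0.15). Each array repeats 1 value at 333 to 534 probes; these were treated as not measured, and keeping them was an alternative.

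Probes of a gene measured at all 5 harvests were averaged. Gene symbols are those of the platform annotation with gene IDs used to update them (11304 probes with 1 symbol, 446 with several, 2330 with none; 11282 matched the RefSeq table). For 8748 genes, limma 3.58.1 (R 4.3.3) estimated the mean over 5 arrays together with a slope per unit of centred log2(1 + min / 10), two-sided, with Benjamini-Hochberg adjustment at 0.05, and was tested on simulated data. Members were grouped by role and described by counts and medians. The genes with full values were the 10 largest passing means per side, the 2 largest of each role, and NCL, NPM1, FBL, DKC1 and GAR1; for the slope, 4 per side; for the pathway list, 6 per side; and MYC. Other members with full values, and the comparison of 8 h with earlier arrays, were chosen after their values were seen. A further promoter motif was searched and is not reported here. Members, roles and lists were chosen with earlier results of these data known.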

Additional observations from a re-analysis of the deposited data

Results flagged for a closer look

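A few members lay beyond the self-self range on opposite sides at different harvests; each harvest is 1 array, so these differences were not tested. The span between the highest and lowest harvest was 1.40 for DKC1, 1.59 for RRP1B and 1.51 for RRP9, all below the range at 0 min and above it at 8 h. PNO1, with a span of 1.25, was below it at 10 min and above it at 8 h. UTP14C, spanning 1.04, was above the range at 10 min and below it at 30 min and 1 h. NOL8, spanning 1.05, was above it at 0 min and below it from 30 min to 8 h. NOP14-AS1 spanned 1.69, with its only value below the range at 1 h. Outside the rule, a probe shared by the symbols POLR1H and PPP1R11 had a mean of -0.60 over the harvests, beyond the self-self range, against -0.57 for the single-symbol POLR1H probe. The other probe of this kind, shared by FBL and FCGBP, had a mean of 0.32, inside the self-self range and opposite in sign to the FBL probe at -1.08.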

How the results depend on the processing

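Each harvest log ratio already sets treated against untreated cells on 1 array. No pairing between arrays was possible because every group has 1 array. Of 26 members followed under 12 alternatives for the mean, 2 values changed sign, neither called: GAR1, 0.14, was -0.012 without the 8 h array, and NPM1, -0.12, was 0.013 with the self-self array in the fit. Of the other values among 312, 263 kept their side of the threshold and 47 lost it, 24 of these with the self-self array in the fit. The total of 28 calls ranged from 21 to 30 with 1 harvest left out, the 17 positive ones from 10 to 20 and the 11 negative ones from 9 to 11. In those fits the shares of all genes ran from 28% to 36.8% positive and from 20.2% to 25.1% negative. With the mean alone in the fit 10 positive and 9 negative calls were made, against 34% and 23.8% of all genes. With the self-self array in the fit there were 0 in all, 0 positive and 0 negative, against 0% and 0.0115% of all genes. Leaving out 1 harvest gave 0 to 10 calls for the slope, and centring the arrays gave 1. Outside the self-self range lay 16, 27, 28, 25 and 32 members at 0, 10 and 30 min, 1 h and 8 h. With a limit of 1 log2 unit these were 1, 10, 4, 1 and 16, and after scaling to equal spread 0, 0, 0, 0 and 1. That scaling widened the self-self range as well, so the last counts were largely set by it. The median mean ran from 0.05 without the 8 h array to 0.24 without the 0 min array. Counts of members at least 1 unit higher at 8 h ran from 13 to 17. Among 11 genes with 2 measured probes, 4 had probe means 0.5 or more apart and none had calls on both sides. The alternative that leaves out the 0 min and 1 h arrays, the one without members of other role, and those for the 8 h difference were chosen after seeing the data. With 1 array per harvest, 3 residual degrees of freedom remain.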
